A study of Ovis aries with 2 samples.

Results

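The genes described are the interferon regulatory factors IRF1, IRF2, IRF3, IRF4, IRF5 and IRF8, that is, the factors of this family other than IRF7 that were listed by symbol for this work. All 6 were found by name among the 26761 gene names of the count tables. Each was followed in 7 groups of blood cell barcodes that were set apart by marker genes, here called gates. The 6 genes were chosen for their family, though with earlier results of these data known.

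Interferon regulatory factors share a DNA-binding domain at the amino end that recognises interferon-stimulated response elements. IRF3 and IRF5 lie in the cytoplasm until pattern-recognition receptors cause their phosphorylation, after which they enter the nucleus and switch on interferon and cytokine genes. IRF1 is induced by interferons and activates many of the same genes, and IRF2 binds the same elements and mostly opposes it. IRF4 and IRF8 bind DNA weakly alone and act with partners such as PU.1 and BATF in the development of B cells, plasma cells, dendritic cells and monocytes. These roles come mainly from work in mouse and human cells.

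The study placed a suture that releases astragaloside IV and glycyrrhizic acid at the acupoint ST36 of weaned lambs and asked how it affects immune function. Peripheral blood mononuclear cells were taken from blood on a density gradient, used fresh without culture, and made into droplet 3′ single-cell libraries. The group labelled A.G.-ES received the embedding at ST36 on both sides before blood was taken, and the untreated group received none. Each group is 1 library, and the labels do not say how many lambs went into it, nor their breed, sex or exact age.

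With 1 library per group no test between the groups was possible, and no p-value is given. Levels are in CPM, the unique molecular identifiers (UMIs) of a gene per 1000000 UMIs summed over a gate. Brackets give 95% intervals, which cover counting error only and leave out the spread between animals. A gene was called higher or lower where its CPM ratio, A.G.-ES over untreated, was at least 1.5-fold in that direction and it had at least 20 UMIs over both libraries. The share of all genes past the same fold, among those with at least 100 UMIs over both libraries in the gate, is given beside the calls. The 2 minimums differ, so some genes called have too few UMIs to enter that share. Lower minimums gave larger shares in the gates listed for them in the section on processing. Fewer positive cells and less RNA per cell cannot be told apart in a summed level, so the share of barcodes with a UMI is given as well, after each barcode was thinned to 1500 UMIs.

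The libraries stood apart in several ways before any IRF gene was considered. After filtering, 8737 barcodes were kept in the A.G.-ES library and 7565 in the untreated library, with medians of 4105 and 5130 UMIs. Over 85 Y-linked genes there were 754 UMIs in the A.G.-ES library and 40447 in the untreated library, so the sex makeup of the sampled lambs cannot be told apart from the treatment. The libraries shared 61 barcode sequences, and leaving these out left 8 higher and 3 lower pairs of gene and gate, as with them.

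The gates held 4675 A.G.-ES barcodes (53.5%) and 5208 untreated barcodes (68.8%), none of them in more than 1 gate. The B gate had 1758 A.G.-ES and 2919 untreated barcodes, the CD4 T gate 1408 and 359, and the CD8B T gate 555 and 177. The gate of T barcodes with SOX13 or RHEX had 601 A.G.-ES and 1115 untreated barcodes, and the monocyte gate 240 and 164. Median depth also differed by gate. In B barcodes it was 5172 UMIs in the A.G.-ES library and 8307 in the untreated library, and in monocytes 6557 and 4281. The NK gate had 46 A.G.-ES and 19 untreated barcodes, under the minimum of 20, so its levels are given with no ratio between libraries.

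The markers of each gate were checked against its name, and several went against it. The gate built on JCHAIN, MZB1 and DERL3, intended for plasmablasts, had 67 A.G.-ES and 455 untreated barcodes. It kept MS4A1, a mature B cell surface gene, at 508 CPM in the A.G.-ES library and 611 CPM in the untreated library. SDC1, a plasma cell surface gene, was at 0 CPM in the A.G.-ES library and 0.1 CPM in the untreated library. In B barcodes it was also only 0.2 and 0 CPM. Other plasmablast genes checked mostly stood above the B gate. TXNDC5 was 30.6 against 10.4 CPM in the A.G.-ES library and 78.7 against 13.3 CPM in the untreated library. XBP1 was 37.9 against 28.7 and 64.2 against 15.6 CPM. FKBP11 was 68.4 against 71.5 and 91.8 against 58.0 CPM, and TNFRSF17 0 against 0 and 3.85 against 0.199 CPM. As MS4A1 was kept beside them, the gate is called the JCHAIN-high B gate. In the B gate, CD8B stood at 44.1 CPM in A.G.-ES barcodes and 0.4 CPM in untreated barcodes, and FLT3, a receptor of dendritic cells and progenitors, at 7.3 and 0.1 CPM. The SOX13/RHEX T gate had CD3E, of the T cell receptor complex, at 1664 CPM in the A.G.-ES library and 1790 CPM in the untreated library. Yet it held LCK, the kinase of T cell receptor signalling, at only 1.5 and 0.454 CPM, against 82.5 and 97.9 CPM in CD4 T barcodes, and CD79A at 77.8 and 127 CPM. In the NK gate CD3E was 131 CPM in A.G.-ES and 12.9 CPM in untreated barcodes, and CD6, another T cell gene, 109 and 0 CPM. Monocytes had CSF1R, the receptor for colony-stimulating factor, at 189 CPM in the A.G.-ES library and 193 CPM in the untreated library.

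Over the 6 gates with enough barcodes in both libraries there were 36 pairs of gene and gate, of which 31 had at least 20 UMIs. Of these 31, 8 were higher in the A.G.-ES library, 3 were lower and 20 lay between. In the B gate 3 of 6 were higher and 0 lower, where 10.6% of all genes were higher and 15.5% lower. In monocytes 2 of 5 were higher and 0 lower, beside 7.61% and 11.9% of all genes. The JCHAIN-high B gate had 1 higher and 0 lower of 6, beside 7.88% and 21.6%. CD4 T barcodes had 1 higher and 0 lower of 5, beside 5.61% and 14.4%. CD8B T barcodes had 1 higher and 2 lower of 4, beside 5.81% and 24.9%, and SOX13/RHEX T barcodes 0 higher and 1 lower of 5, beside 4.73% and 15.3%. Counted by gene, IRF8 was higher in all 3 gates where it could be measured, IRF3 in 3 of 6, IRF1 in 2 of 6, while IRF2, IRF4 and IRF5 had no higher call and 1 lower call each.

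**Figure D1:**
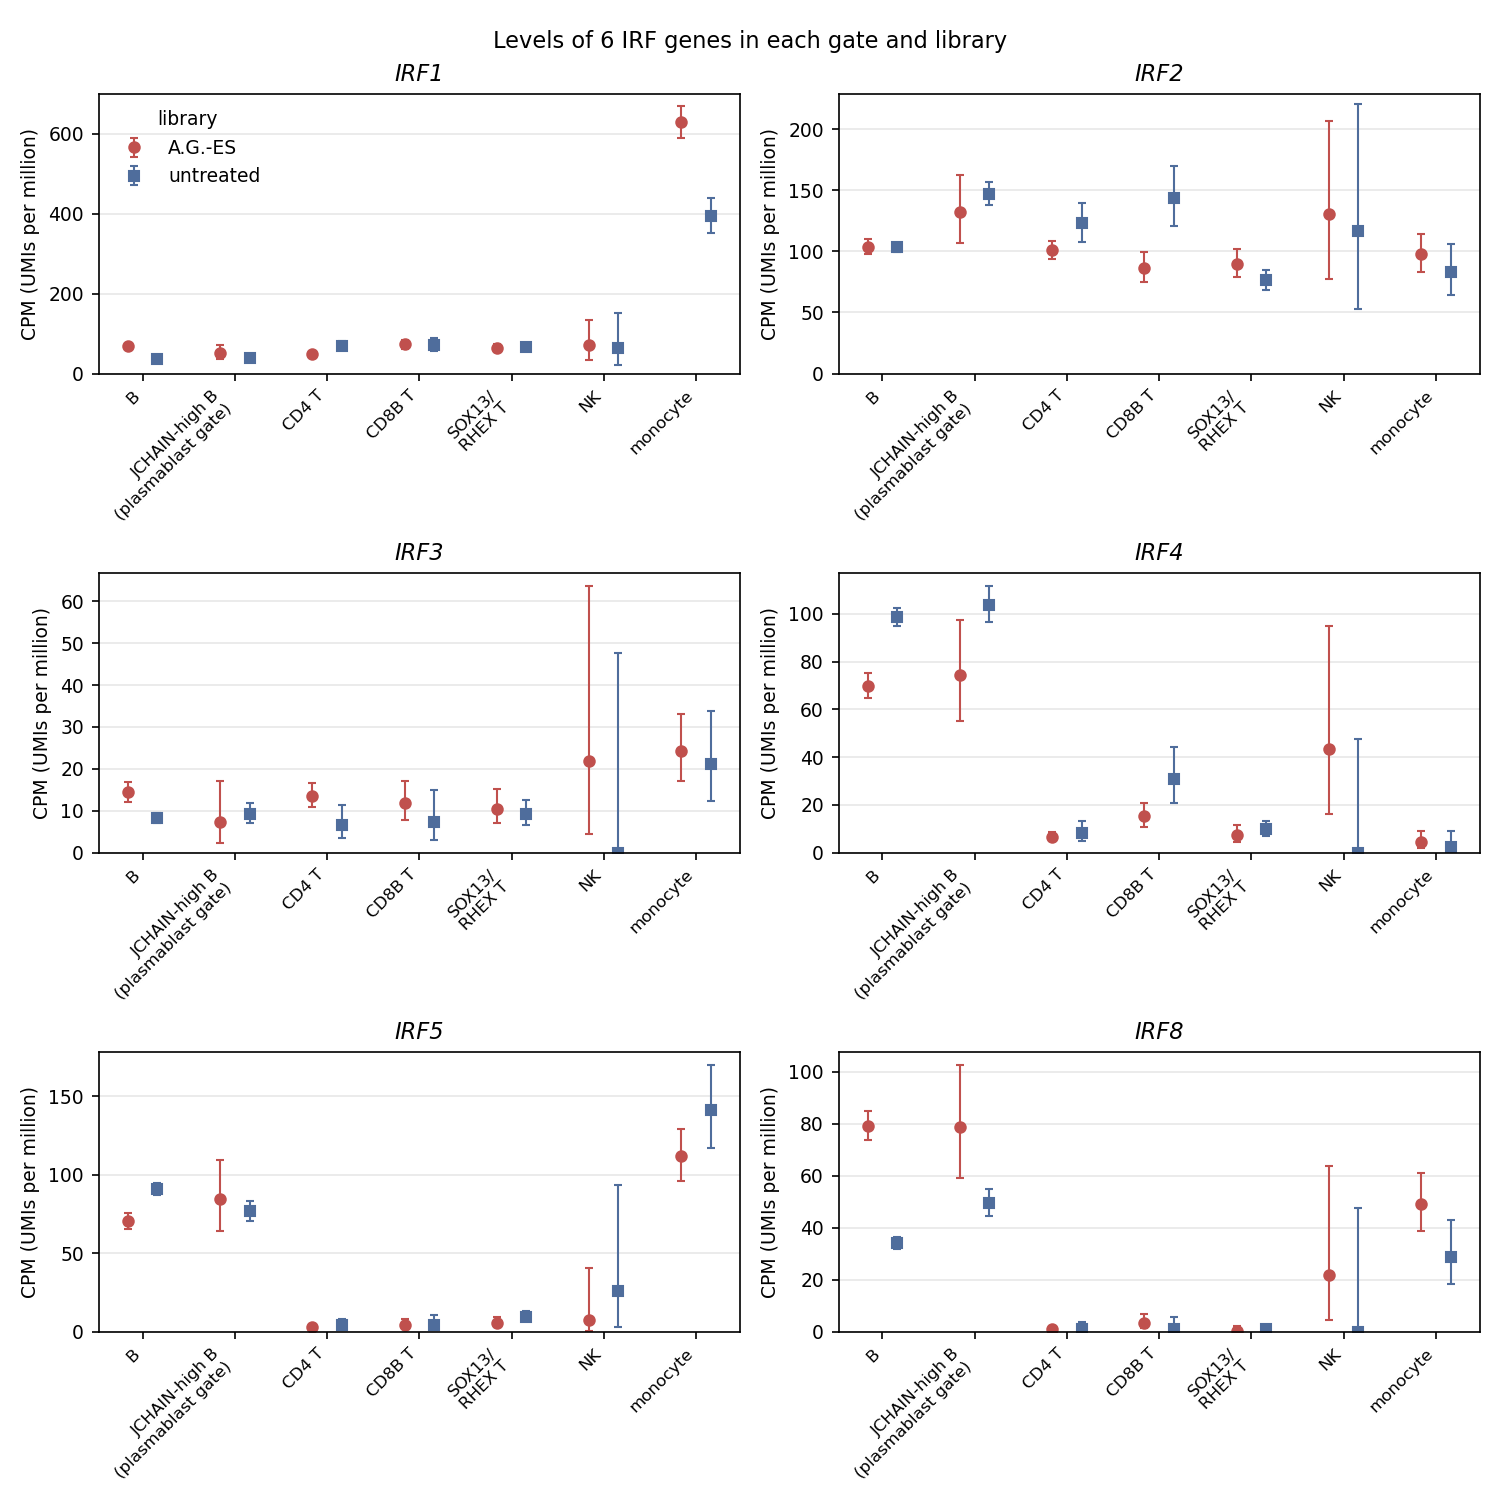
Level of each IRF gene (CPM) in the 7 gates. Circles are the A.G.-ES library and squares the untreated library, and bars are exact Poisson 95% intervals for counting error. IRF1 stands highest in monocytes, 629 CPM in A.G.-ES and 394 CPM in untreated barcodes, and IRF8 is near 0 in the 3 T cell gates.

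IRF1, the interferon-induced activator, was by far highest in monocytes in both libraries. There it reached 629 CPM (590 to 669) in A.G.-ES barcodes, against 394 CPM (352 to 440) in untreated barcodes, a ratio of 1.60 (1.41 to 1.82). At equal depth 54.4% of A.G.-ES monocytes had an IRF1 UMI, against 34.9% of untreated monocytes, and the 2 share intervals did not overlap. The higher level was thus seen at fixed depth as well as in the sum. Monocyte levels exceeded B levels 9.26-fold (8.39 to 10.2) in the A.G.-ES library and 10.5-fold (9.20 to 11.9) in the untreated library. Many genes separated these gates: 22.5% of all genes were higher and 41.4% lower in monocytes than in B barcodes in the A.G.-ES library, and 21.7% and 48% in the untreated library. The remaining gates lay between 49.2 and 72.7 CPM in the A.G.-ES library and between 37.6 and 71.3 CPM in the untreated library.

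In monocytes with no UMI of FLT3, CLEC9A or XCR1, genes of dendritic cells, IRF1 was 647 CPM in 208 A.G.-ES barcodes and 391 CPM in 144 untreated barcodes, a ratio of 1.65 (1.44 to 1.90). Within that subset 7.94% of all genes were higher and 12.5% lower. In the 32 A.G.-ES and 20 untreated monocytes that had such a UMI, IRF1 was 538 CPM and 408 CPM, a ratio of 1.32 (0.953 to 1.85). IRF1 was therefore also higher in monocytes that lacked these dendritic cell genes.

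IRF1 was also higher in B barcodes, at 67.9 CPM (62.9 to 73.2) in A.G.-ES barcodes and 37.6 CPM (35.2 to 40.0) in untreated barcodes, a ratio of 1.81 (1.64 to 2.00). The thinned share with a UMI was 10.3% in A.G.-ES and 5.09% in untreated B barcodes. In CD4 T barcodes the direction was opposite: IRF1 was 49.2 CPM in the A.G.-ES library and 70.0 CPM in the untreated library, a ratio of 0.703 (0.575 to 0.863) that did not reach the 1.5-fold limit. Of the 138 untreated UMIs there, 19 came from 1 of the 359 barcodes. The thinned share was 6.03% (4.84 to 7.42) in A.G.-ES and 8.96% (6.21 to 12.4) in untreated CD4 T barcodes, with overlapping intervals. At 1000 UMIs per barcode it was 3.56% (2.65 to 4.67) and 8.08% (5.48 to 11.4), without overlap. CD8B T barcodes had 72.7 and 71.3 CPM, and SOX13/RHEX T barcodes 63.9 and 65.2 CPM, in A.G.-ES and untreated libraries. IRF1 was thus close between libraries in those 2 gates, with ratios of 1.02 (0.768 to 1.37) and 0.980 (0.807 to 1.19). In the RefSeq annotation of the sheep assembly ARS-UI_Ramb_v3.0, used here for neighbours only, IRF1 overlaps RAD50, which is counted too. Whether the counting used strand is not given in the sources used here, so reads of the pair may have been exchanged, and IRF1 is uncertain to that extent.

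IRF2, the factor that mostly opposes IRF1, was the most even of the 6 across gates. In B barcodes it stood at 103.6 CPM in the A.G.-ES library and 103.1 CPM in the untreated library, a ratio of 1.00 (0.934 to 1.08). Its extremes were the JCHAIN-high B gate, at 132 CPM in the A.G.-ES library, and 147 CPM in the untreated library, and the lowest gates, CD8B T at 86.6 CPM in the A.G.-ES library and SOX13/RHEX T at 76.3 CPM in the untreated library. The order of gates thus differed between libraries, and neighbours in it overlapped within counting error. The ends did not overlap, at 138 to 156 against 68.4 to 84.9 CPM in the untreated library. There SOX13/RHEX T over CD4 T barcodes had a ratio of 0.622 (0.526 to 0.737).

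Between the libraries, IRF2 passed 1.5-fold in CD8B T barcodes alone. There IRF2 was 86.6 CPM (75.2 to 99.3) in A.G.-ES barcodes and 144 CPM (121 to 169) in untreated barcodes, 1.66-fold lower (ratio 0.603, 0.484 to 0.754). Of the 139 untreated UMIs, 25 came from 3 barcodes. The thinned shares were 12.2% in A.G.-ES and 17.2% in untreated barcodes, with overlapping intervals. Among CD8B T barcodes with at least 10 UMIs of GNLY, a cytotoxic granule gene, the ratio was 0.653 (0.449 to 0.952), and among those with fewer it was 0.595 (0.450 to 0.789). All genes in this gate also leaned lower, with a median log2 ratio of -0.28, and the log2 ratio of IRF2, -0.73 on the CPM scale, was -0.40 with TMM scaling; the call was lost under 6 of 13 alternatives.

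IRF3, which nucleic acid sensors activate through the kinase TBK1, had a low level in every gate. In B barcodes it was 14.4 CPM (12.1 to 17.0) in A.G.-ES barcodes and 8.15 CPM (7.08 to 9.35) in untreated barcodes, a ratio of 1.77 (1.42 to 2.20). CD4 T barcodes had 13.6 CPM (11.0 to 16.6) in A.G.-ES barcodes and 6.59 CPM (3.51 to 11.3) in untreated barcodes, a ratio of 2.06 (1.15 to 4.01) that rests on 93 and 13 UMIs. IRF3 in CD8B T barcodes also passed the fold, at 11.8 and 7.23 CPM, but its ratio of 1.63 (0.695 to 4.42) included 1. In SOX13/RHEX T barcodes it was 10.5 CPM in the A.G.-ES library and 9.31 CPM in the untreated library. Monocytes had the highest level in both libraries, 24.2 and 21.1 CPM, and their intervals overlapped. The thinned share in B barcodes was 2.60% (1.90 to 3.47) in the A.G.-ES library and 1.26% (0.887 to 1.75) in the untreated library.

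IRF5, which Toll-like receptor signals activate, marked B barcodes and monocytes. In monocytes it was 112 CPM (96.0 to 129) in A.G.-ES barcodes and 142 CPM (117 to 170) in untreated barcodes, and in B barcodes 70.3 CPM (65.2 to 75.7) and 91.0 CPM (87.3 to 94.8). The ratios were 0.789 (0.620 to 1.01) and 0.773 (0.709 to 0.841), both inside the limit. In monocytes the direction depended on depth: the share of barcodes with an IRF5 UMI was 14.8% in the A.G.-ES library and 21.1% in the untreated library at 1500 UMIs per barcode, and 13.8% and 9.62% at 1000, where the log2 ratio was 0.65. Monocytes exceeded B barcodes 1.59-fold (1.34 to 1.87) in the A.G.-ES library and 1.56-fold (1.28 to 1.88) in the untreated library. The 3 T cell gates held between 3.21 and 5.61 CPM in the A.G.-ES library and between 4.06 and 9.54 CPM in the untreated library. In SOX13/RHEX T barcodes IRF5 was called lower, 5.61 against 9.54 CPM, from 15 and 42 UMIs, and the interval of its ratio, 0.303 to 1.08, included 1. This call was lost without CD79A in the B markers (log2 ratio -0.55) and with up to 3 UMIs of other lineages (-0.50).

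IRF4, a factor of lymphocyte activation and plasma cell formation, was highest in the B-lineage gates. B barcodes had 69.8 CPM (64.7 to 75.2) in A.G.-ES barcodes and 98.7 CPM (94.8 to 103) in untreated barcodes, a ratio of 0.707 (0.649 to 0.770). The JCHAIN-high B gate had 74.3 CPM (55.3 to 97.6) in A.G.-ES barcodes and 104 CPM (96.6 to 112) in untreated barcodes, a ratio of 0.714 (0.527 to 0.949). Neither passed 1.5-fold, although IRF4 had the lower level in the A.G.-ES library in both. The thinned share in B barcodes was 9.36% in the A.G.-ES library and 13.4% in the untreated library, without overlap of the intervals. In monocytes only 7 A.G.-ES and 2 untreated UMIs were counted.

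Among T cells, IRF4 was higher in CD8B T than in CD4 T barcodes in both libraries. CD8B T barcodes had 15.1 CPM in the A.G.-ES library and 31.0 CPM in the untreated library, and CD4 T barcodes had 6.42 and 8.12 CPM. The ratio of CD8B T over CD4 T was 2.36 (1.47 to 3.75) in the A.G.-ES library and 3.82 (2.02 to 7.50) in the untreated library. Of all genes, 7.04% and 9.82% were at least 1.5-fold higher, and the shares as high as IRF4 are not given. Between the libraries IRF4 was 2.05-fold lower in A.G.-ES CD8B T barcodes (ratio 0.489, 0.293 to 0.821), on 36 and 30 UMIs. In the GNLY-low barcodes it was 14.9 CPM in the A.G.-ES library and 37.9 CPM in the untreated library, a ratio of 0.393 (0.215 to 0.721). There 24% of all genes were at least 1.5-fold lower, and the share as low as IRF4 is not given. The call did not hold when every barcode had the same weight (log2 ratio -0.40), and it turned round at 1000 UMIs per barcode.

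Within the JCHAIN-high B gate, barcodes with JCHAIN of at least 3000 CPM numbered 2 in the A.G.-ES library and 47 in the untreated library, so they are described in the untreated library alone. They had IRF4 at 180 CPM (151 to 212), against 94.3 CPM (86.8 to 102) in the rest of the gate, a ratio of 1.91 (1.58 to 2.29). IRF2 was 232 CPM there and 136 CPM in the rest, a ratio of 1.71 (1.45 to 2.01). IRF8 ran the other way, at 32.7 CPM against 51.5 CPM, a ratio of 0.635 (0.408 to 0.947), and IRF5 too, at 40.2 CPM against 81.4 CPM. PRDM1, which drives plasma cell differentiation, stood at 170 CPM in these barcodes, and MS4A1 at 47.8 CPM. The gate as a whole did not separate from B barcodes by IRF4: the ratio over B was 1.06 (0.784 to 1.41) in the A.G.-ES library and 1.05 (0.969 to 1.14) in the untreated library. Of the 6 genes only IRF3 passed 1.5-fold between these gates, lower in the A.G.-ES library on 5 UMIs, where 13.6% of all genes were higher and 15% lower. In the untreated library 0 of 6 passed, beside 14.3% and 8.74%.

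**Figure D2:**
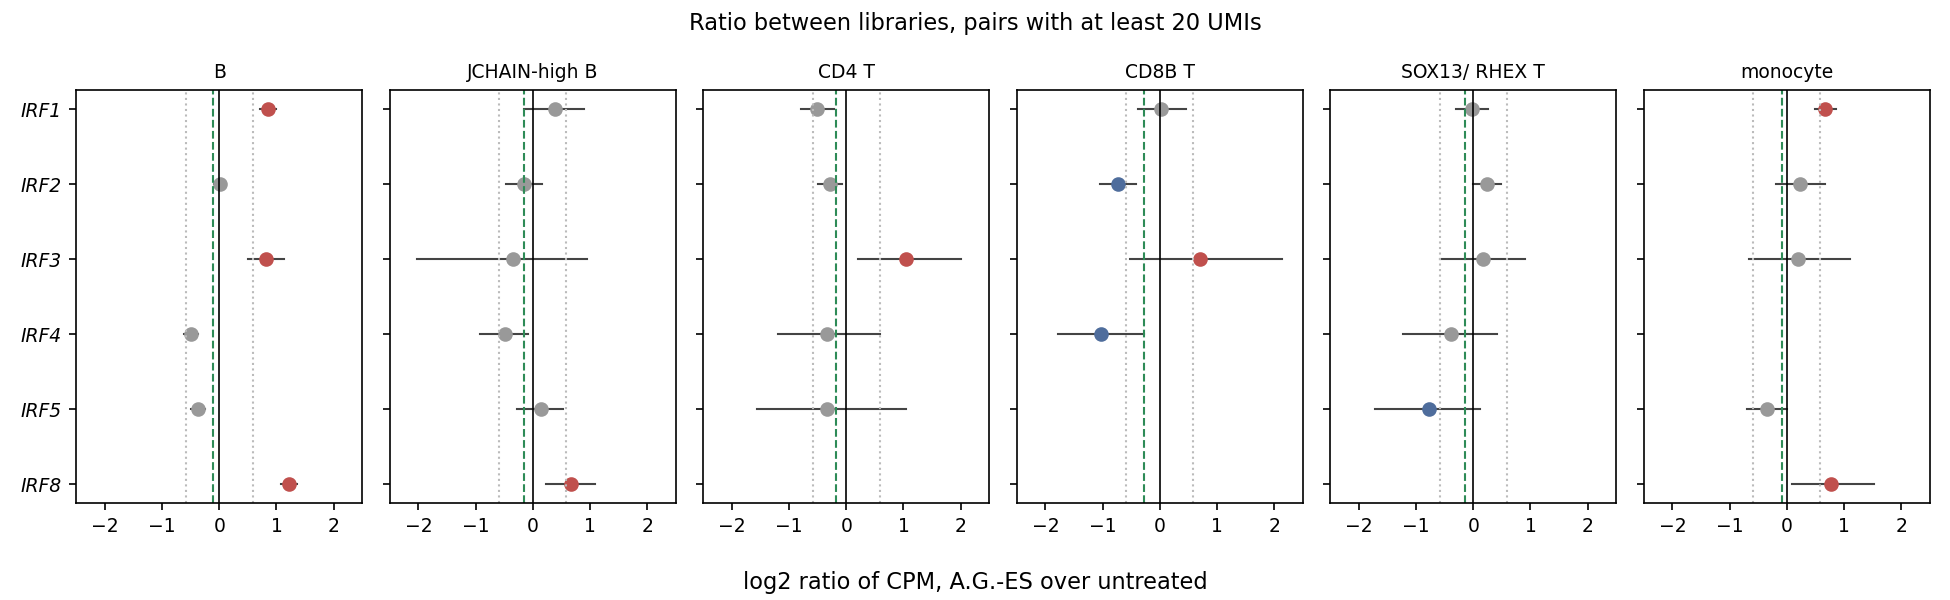
Log2 ratio of CPM, A.G.-ES over untreated, for each IRF gene in the 6 gates with enough barcodes, with 95% intervals for counting error. Dotted lines mark 1.5-fold, the dashed line the median of all genes in the gate, red points the 8 higher calls, blue points the 3 lower calls and grey points the 20 pairs between. IRF8 lies to the right in each of the 3 gates where it was measured.

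IRF8, a factor of B cells, monocytes and dendritic cells, had the largest ratio of the 6 in the B gate. Its level was 79.0 CPM (73.6 to 84.7) in A.G.-ES B barcodes, against 34.0 CPM (31.7 to 36.3) in untreated B barcodes, a ratio of 2.33 (2.11 to 2.56). The JCHAIN-high B gate had 78.6 CPM (59.1 to 103) and 49.3 CPM (44.3 to 54.8), a ratio of 1.59 (1.17 to 2.13). The call was lost at 1500 UMIs per barcode: the share with an IRF8 UMI was 9.23% in A.G.-ES and 9.05% in untreated JCHAIN-high B barcodes, and the log2 ratio 0.15, although it was 0.80 at 1000 UMIs. Monocytes had 49.0 CPM (38.8 to 61.1) and 28.6 CPM (18.1 to 42.9), a ratio of 1.72 (1.07 to 2.86), and 1.59 (0.962 to 2.74) without barcodes that held FLT3, CLEC9A or XCR1. Yet the plain share of B barcodes with an IRF8 UMI was close, 20.1% in the A.G.-ES library and 20.7% in the untreated library, and 7.46% and 4.07% at equal depth.

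The IRF8 UMIs of the A.G.-ES B gate were concentrated in few barcodes. In the A.G.-ES library 28 of 1758 B barcodes had at least 5 IRF8 UMIs and held 394 of the 790 UMIs (49.9%), against 7 of 2919 untreated barcodes with 44 of 854 UMIs (5.15%). The highest barcode had 26 UMIs in the A.G.-ES library and 8 in the untreated library, and 18 A.G.-ES barcodes reached 10 UMIs, against 0 untreated barcodes. No other of the 6 genes was so concentrated in A.G.-ES B barcodes: those with at least 5 UMIs held 7.36% of IRF1, 4.15% of IRF2, 0% of IRF3, 7.02% of IRF4 and 2.13% of IRF5 UMIs. Outside these barcodes IRF8 was 41.2 CPM in A.G.-ES and 32.3 CPM in untreated B barcodes.

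The 28 A.G.-ES barcodes carried few B cell genes, as examined after their IRF8 counts were seen. MS4A1 was at 55.3 CPM and was found in 2 of the 28, and only 1 of the 28 would have entered the gate without CD79A, a gene of the B cell receptor complex. CD8B was found in 26 of 28 at 1096 CPM, while CD8A, its partner chain in T cells, was found in 2 and CD3E, a T cell receptor complex gene, in 5. CTSS, a lysosomal protease gene of antigen-presenting cells, stood at 4140 CPM, TCF4, a transcription factor gene of B cells and plasmacytoid dendritic cells, at 1897 CPM, and FLT3 was found in 17 of 28. These barcodes were also deep, with a median of 13676.5 UMIs. The 7 untreated barcodes had MS4A1 at 1502 CPM and no CD8B or FLT3 UMI, and all 7 would have entered the gate without CD79A. The barcodes rich in IRF8 thus carried different genes in the 2 libraries; no cell type name was given to them.

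Entry to the B gate by way of CD79A carried most of the IRF8 difference. Barcodes that needed CD79A to reach 3 B marker UMIs were 292 (16.6%) of the A.G.-ES gate and 76 (2.60%) of the untreated gate. Their IRF8 level was 322 CPM (293 to 353) in A.G.-ES barcodes and 33.9 CPM (15.5 to 64.3) in untreated barcodes, a ratio of 9.50 (4.96 to 20.9) on 456 and 9 UMIs. In the same barcodes CD8B was at 302 CPM in the A.G.-ES library and 3.8 CPM in the untreated library. The other 1466 A.G.-ES and 2843 untreated B barcodes had IRF8 at 38.9 CPM (34.9 to 43.3) and 34.0 CPM (31.7 to 36.3), a ratio of 1.15 (1.01 to 1.30). In these barcodes IRF8 was not past the fold, while IRF1 kept a ratio of 1.69 (1.51 to 1.88) and IRF3 one of 1.65 (1.30 to 2.08), beside 8.56% of all genes higher and 15.8% lower. IRF4 had a ratio of 0.735 and IRF5 one of 0.798 there.

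Barcodes with a UMI each of FLT3, CD8B and FCER1G, an immunoglobulin receptor subunit of myeloid cells, were then counted over all kept barcodes, a combination picked after the values above were seen. There were 35 of 8737 (0.401%, 0.279 to 0.557) in the A.G.-ES library, and 0 of 7565 in the untreated library, where a count of 0 allows a share of up to 0.0397% by the 3-count limit and 0.0488% by the exact 95% interval. Of the 35, 18 lay in the B gate and 14 in no gate. IRF8 stood at 852 CPM (769 to 941) in them, TCF4 at 1971 CPM and MS4A1 at 6.61 CPM. They had IRF4 at 13.2 CPM and IRF5 at 72.7 CPM. CLEC9A and FCER1A, which mark conventional dendritic cells, had no UMI in any gate of either library.

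**Figure D3:**
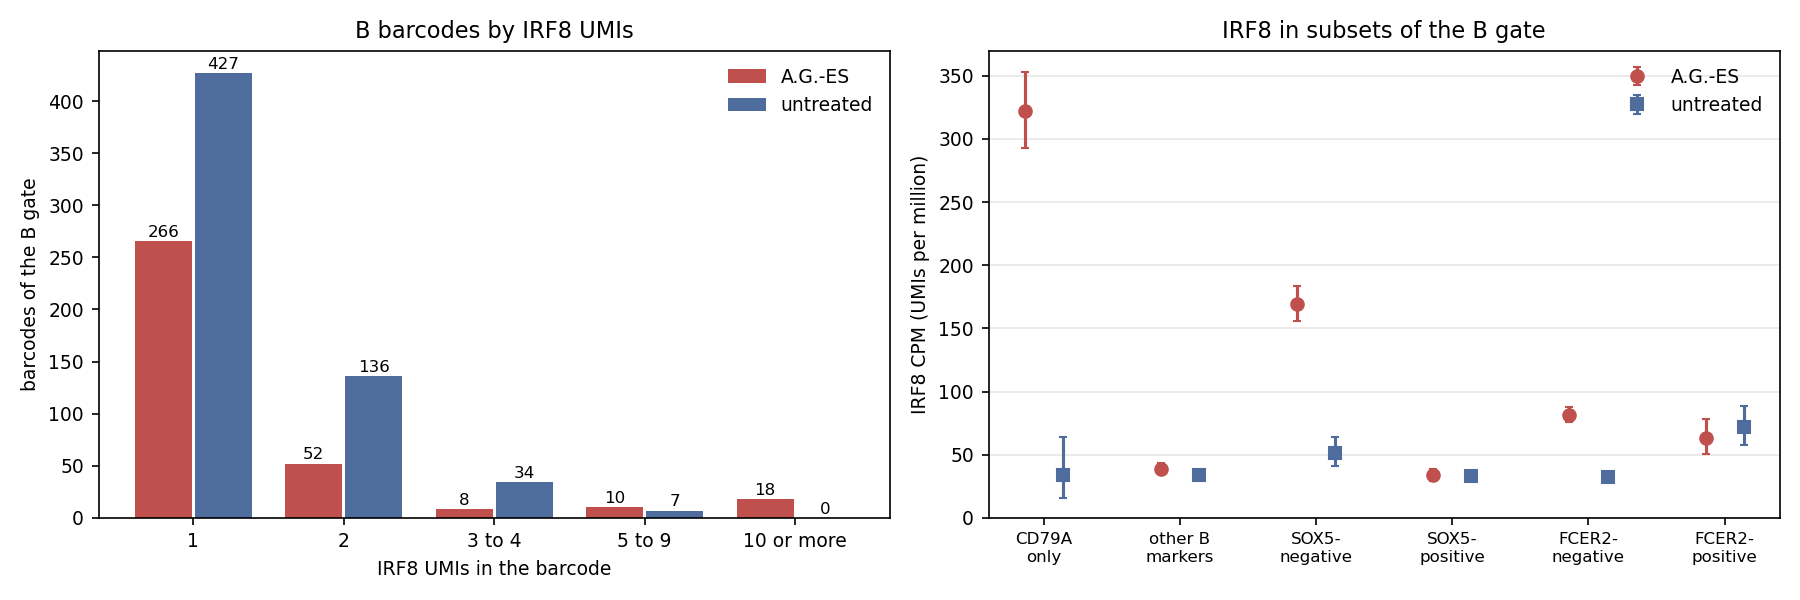
Left, number of B barcodes with 1 or more IRF8 UMIs, by UMIs per barcode. Right, IRF8 level (CPM, with 95% intervals for counting error) in B barcodes that entered the gate only through CD79A, that had other B markers, or that were split by SOX5 or FCER2. In the left panel 18 A.G.-ES and 0 untreated barcodes reach 10 UMIs, and on the right the CD79A-only barcodes stand at 322 CPM in the A.G.-ES library and 33.9 CPM in the untreated library.

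SOX5, a transcription factor gene of atypical B cells, divided the B gate very unequally between libraries. A SOX5 UMI was found in 1057 A.G.-ES B barcodes (60.1%) and in 2668 untreated B barcodes (91.4%). The median depth of SOX5-positive barcodes was 5985 UMIs in the A.G.-ES library and 8474.5 in the untreated library, and that of SOX5-negative barcodes 4268 and 5879, so detection of SOX5 moved with depth. IRF1 was lower in SOX5-positive than in SOX5-negative barcodes in both libraries, 51.8 against 100 CPM in the A.G.-ES library and 35.0 against 77.1 CPM in the untreated library. Between the libraries the IRF1 ratio was 1.48 (1.30 to 1.68) in SOX5-positive barcodes and 1.30 (1.05 to 1.62) in SOX5-negative barcodes. Both ratios were above 1 and under 1.5, below the 1.81 of the whole gate, and the part of the unequal SOX5 shares in that value was not tested.

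Splitting by SOX5 also set IRF8 apart. In SOX5-positive B barcodes IRF8 was 33.8 CPM (29.5 to 38.5) in A.G.-ES barcodes and 32.8 CPM (30.6 to 35.2) in untreated barcodes, a ratio of 1.03 (0.882 to 1.19). In SOX5-negative barcodes it was 169 CPM (156 to 184) and 51.4 CPM (40.7 to 64.2), a ratio of 3.29 (2.60 to 4.23). The 28 A.G.-ES barcodes with at least 5 IRF8 UMIs held 394 UMIs, and all SOX5-positive A.G.-ES barcodes together held 225. Part of those 394 thus lay in SOX5-negative barcodes, and the ratio without them was not taken. IRF3 had ratios of 1.38 (1.04 to 1.82) and 2.12 (1.20 to 3.99) in the positive and negative barcodes. For IRF4 they were 0.714 (0.646 to 0.789) and 0.789 (0.633 to 0.988), so its lower level in the A.G.-ES library was seen on both sides of the split. Among SOX5-positive barcodes 0 of 6 IRF genes passed 1.5-fold, where 7.49% of all genes were higher and 14.9% lower. Among SOX5-negative barcodes 2 of 6 were higher and 0 lower, beside 9.61% and 17.7%.

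**Figure D4:**
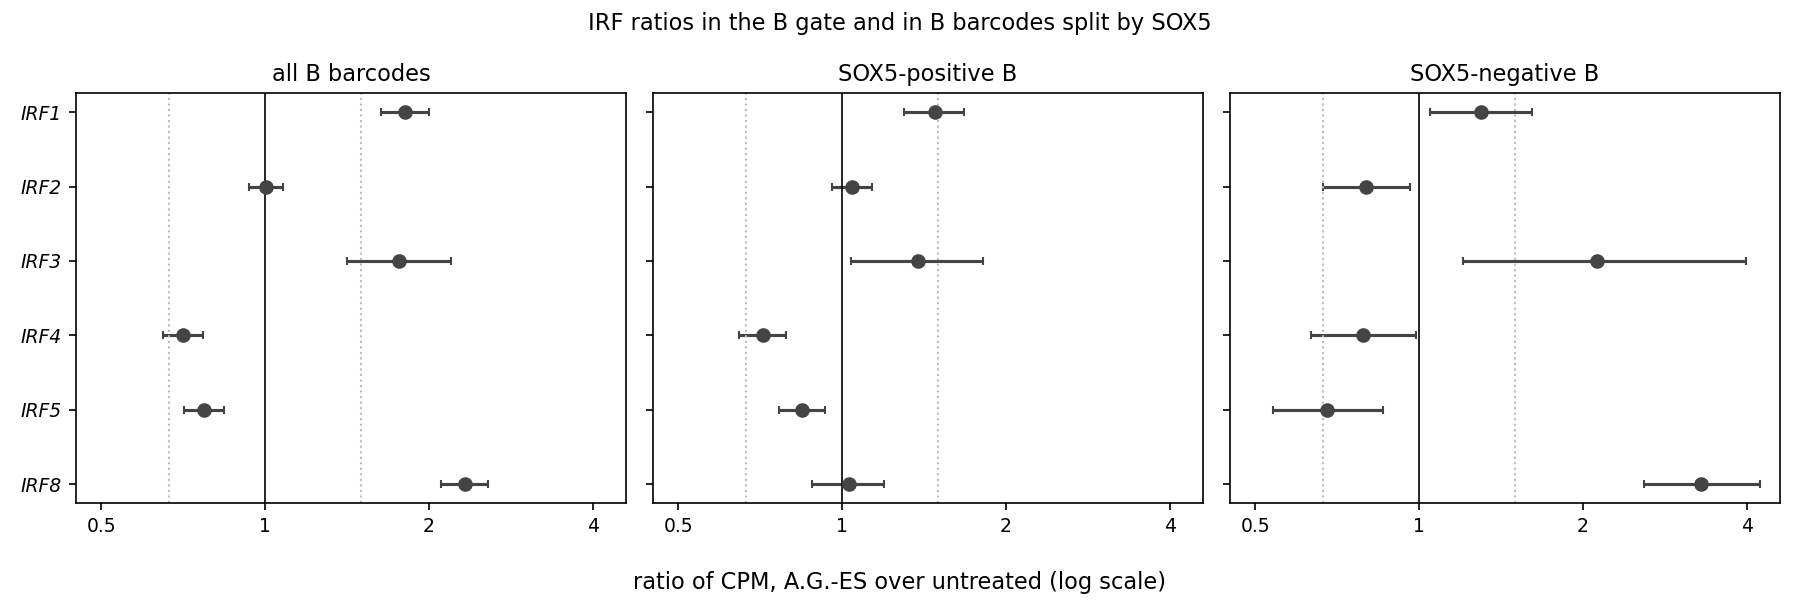
Ratio of CPM, A.G.-ES over untreated, for the 6 IRF genes in all B barcodes, SOX5-positive B barcodes and SOX5-negative B barcodes, on a log axis with 95% intervals for counting error; dotted lines mark 1.5-fold. IRF8 sits at 1.03 in SOX5-positive and at 3.29 in SOX5-negative barcodes, and IRF1 is under 1.5 on both sides.

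FCER2, the low-affinity IgE receptor gene CD23 of naive B cells, was found in 249 A.G.-ES B barcodes (14.2%) and 128 untreated B barcodes (4.39%). IRF8 in FCER2-positive barcodes was 63.0 CPM (50.2 to 78.1) in A.G.-ES barcodes and 72.1 CPM (57.8 to 88.8) in untreated barcodes, a ratio of 0.874 (0.640 to 1.19). Within the untreated library FCER2-positive barcodes had 2.25-fold (1.78 to 2.81) the IRF8 level of FCER2-negative barcodes, and within the A.G.-ES library 0.773-fold (0.608 to 0.972). The 28 A.G.-ES barcodes with at least 5 IRF8 UMIs held 394 UMIs, and all FCER2-positive A.G.-ES barcodes together held 83. Most of those 394 thus lay in FCER2-negative barcodes, and the comparison without them was not made. IRF1 was higher in FCER2-positive than in FCER2-negative barcodes in both libraries, by 1.31-fold (1.06 to 1.61) in the A.G.-ES library and 1.71-fold (1.34 to 2.17) in the untreated library. IRF4 was too, by 1.29-fold (1.04 to 1.57) and 1.25-fold (1.05 to 1.48).

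At 1500 UMIs per B barcode, IRF4 was found in 14% (8.48 to 21.2) of A.G.-ES barcodes with an IRF8 UMI and in 8.99% (7.64 to 10.5) of those without. In the untreated library the shares were 14.7% (8.78 to 22.4) and 13.3% (12.1 to 14.7). The intervals with and without an IRF8 UMI overlapped in both libraries. IRF5 was found in 6.98% with and 10.2% without IRF8 in the A.G.-ES library and in 10.3% and 12.2% in the untreated library.

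In the T cell gates IRF8 had few UMIs in either library. It had 8 A.G.-ES and 2 untreated UMIs in CD4 T barcodes, 8 and 1 in CD8B T barcodes, and 1 and 5 in SOX13/RHEX T barcodes. Per 1000 UMIs of 7 B cell genes, CD4 T barcodes held 163 IRF8 UMIs in the A.G.-ES library and 66.7 in the untreated library, and B barcodes 176 and 65.0. The intervals of the CD4 T values, 70.5 to 322 in the A.G.-ES library and 8.07 to 241 in the untreated library, contained the B values. IRF4 was different: per 1000 UMIs of those genes it had 898 UMIs in A.G.-ES and 533 in untreated CD4 T barcodes, against 156 and 189 in B barcodes. The 7 genes were not confined to B barcodes. Summed, they stood at 284 CPM in A.G.-ES and 417 CPM in untreated SOX13/RHEX T barcodes, beside 448 and 523 CPM in B barcodes. The source of the IRF8 UMIs in CD4 T barcodes was not tested. In the NK gate the A.G.-ES library had 10 UMIs of IRF1, 18 of IRF2, 3 of IRF3, 6 of IRF4, 1 of IRF5 and 3 of IRF8, and the untreated library 5, 9, 0, 0, 2 and 0. IRF1 was 72.7 CPM (34.9 to 134) in A.G.-ES and 64.6 CPM (21.0 to 151) in untreated NK barcodes, and IRF2 131 CPM (77.5 to 207) and 116 CPM (53.2 to 221).

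Lists of genes that work with the 6 factors were counted in the same way. Of 15 measured genes known as IRF1 or IRF3 targets, 8 were higher and 1 lower in A.G.-ES B barcodes, with a median log2 ratio of 0.63 against -0.11 over all genes, and beside 10.6% of all genes higher and 15.5% lower. Without the barcodes that needed CD79A the count was the same, 8 and 1. CCL5, a chemokine of T cells and macrophages, was 25.7 CPM in the A.G.-ES library and 5.69 CPM in the untreated library, and ISG15, a ubiquitin-like interferon response gene, 52.4 and 14.5 CPM, a ratio of 3.62 (3.16 to 4.15). Among T cell and cytotoxic genes in this gate, GNLY was 37.7 and 16.5 CPM, CD3E 13.1 and 4.97 CPM and CD247 6.80 and 7.76 CPM. Whether CCL5 came with T cell RNA was not tested. PSMB8, an immunoproteasome subunit with the most UMIs of the list, was 305 and 362 CPM.

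Monocytes showed the same list at 8 higher and 0 lower of 14, with a median log2 ratio of 0.81 against -0.08 over all genes, beside 7.61% and 11.9% of all genes. CXCL10, an interferon-induced chemokine, was 57.7 CPM in A.G.-ES monocytes and 4.97 CPM in untreated monocytes, a ratio of 11.6 (4.39 to 43.5), and ISG15 was 503 and 197 CPM, a ratio of 2.55 (2.15 to 3.04). In CD4 T barcodes 1 of 13 was higher and 3 lower, and in CD8B T barcodes 2 of 12 higher and 4 lower; 14.4% and 24.9% of all genes were lower in these gates. CIITA, the activator of MHC class II genes, was 6.86 CPM in A.G.-ES and 14.2 CPM in untreated CD4 T barcodes. SOX13/RHEX T barcodes had 3 of 12 higher and 1 lower, beside 4.73% and 15.3% of all genes, led by CCL5 at 187 CPM in the A.G.-ES library and 8.41 CPM in the untreated library. Of the cytotoxic genes checked in these barcodes, GNLY was 57.9 and 6.59 CPM, NKG7 91.6 and 78.6 CPM and PRF1 21.7 and 22.9 CPM. Whether CCL5 went with cytotoxic content was not tested. The JCHAIN-high B gate had 4 of 12 higher and 2 lower, beside 7.88% and 21.6%, with a median log2 ratio of -0.24. The list median was thus above that of all genes in B barcodes, monocytes and the SOX13/RHEX T gate, the last at 0.07 against -0.15, and in CD4 T barcodes, at -0.05 against -0.18.

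Of 16 interferon receptor and JAK-STAT genes, 5 were higher and 0 lower in B barcodes, beside 10.6% and 15.5% of all genes. STAT2, which joins IRF9 in the complex formed by type I interferon, was 33.2 CPM in the A.G.-ES library and 16.8 CPM in the untreated library, a ratio of 1.98 (1.71 to 2.29), while JAK1, a kinase of most interferon receptors, was 669 CPM in both. In CD4 T barcodes 0 of 15 were higher and 3 lower, beside 14.4% of all genes lower, among them IFNGR2, a chain of the interferon gamma receptor, at 54.5 CPM in the A.G.-ES library and 159 CPM in the untreated library. In CD8B T barcodes 2 of 15 were higher and 4 lower, beside 5.81% and 24.9% of all genes. In SOX13/RHEX T barcodes 1 of 15 was higher and 2 lower, beside 4.73% and 15.3%. The counts of lower genes were thus close to the gates as a whole. Monocytes had 0 of 13 past the fold in either direction, beside 7.61% of all genes higher and 11.9% lower. The JCHAIN-high B gate had 4 of 15 higher and 3 lower, beside 7.88% and 21.6%.

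Among the sensors and kinases upstream of IRF3 and IRF5, 4 of 24 were higher and 4 lower in B barcodes, beside 10.6% and 15.5% of all genes, and 1 and 6 without the barcodes that needed CD79A, beside 8.56% and 15.8%. TLR3, a receptor for double-stranded RNA, was 6.40 CPM in the A.G.-ES library and 1.63 CPM in the untreated library. LYN, a kinase that restrains IRF5 in mouse cells, was 678 and 1312 CPM, a ratio of 0.517 (0.503 to 0.530). TBK1, the kinase of IRF3, was 16.5 CPM in A.G.-ES and 35.0 CPM in untreated CD4 T barcodes and 14.3 and 32.0 CPM in CD8B T barcodes, so it lay 2.12-fold and 2.24-fold lower. In CD8B T barcodes 0 of 15 genes of this list were higher and 7 lower, beside 5.81% and 24.9% of all genes, with a median log2 ratio of -0.56 against -0.28 over all genes. In monocytes 2 of 19 were higher and 1 lower, beside 7.61% and 11.9%. RIGI, a sensor of viral RNA, was 27.3 CPM in A.G.-ES and 3.73 CPM in untreated monocytes, and IKBKE, a kinase related to TBK1, 68.9 and 129 CPM. The counts were 2 higher and 3 lower of 17 in CD4 T, 0 and 3 of 16 in SOX13/RHEX T, and 4 and 3 of 19 in JCHAIN-high B barcodes, where 14.4%, 15.3% and 21.6% of all genes were lower.

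Of the partners and regulators of IRF4 and IRF8, 3 of 18 were higher and 5 lower in B barcodes, beside 10.6% and 15.5% of all genes. JUND, an AP-1 subunit, was 440 CPM in the A.G.-ES library and 218 CPM in the untreated library. BATF, the AP-1 partner of IRF4, was 16.1 and 41.3 CPM, a ratio of 0.390 (0.328 to 0.461), and IKZF3, a zinc finger regulator of B cell maturation, 181 and 407 CPM. BATF thus had the lowest ratio of the list in the gate where IRF4 had a ratio of 0.707. In CD8B T barcodes 3 of 14 were higher and 1 lower, beside 5.81% and 24.9%, with JUN at 897 and 345 CPM. SOX13/RHEX T barcodes had 3 of 16 higher and 4 lower, CD4 T barcodes 2 and 3 of 15, monocytes 0 and 1 of 14, and JCHAIN-high B barcodes 3 and 4 of 17, against 15.3%, 14.4%, 11.9% and 21.6% of all genes lower. Of the IRF2 partners and repressors, IRF2BP1 and IRF2BP2, corepressors named for binding IRF2, were the 2 of 7 that were higher in B barcodes, IRF2BP2 at 75.5 and 45.4 CPM. KAT2B, an acetyltransferase that binds IRF2, was 2.68-fold lower in A.G.-ES CD8B T barcodes, at 23.1 against 62.0 CPM, where the list had 1 of 5 higher and 3 lower, beside 5.81% and 24.9%. In the CD4 T, SOX13/RHEX T and monocyte gates 0 of 7, 0 of 7 and 0 of 6 genes of that list passed the fold. Of all genes there, 5.61%, 4.73% and 7.61% were higher and 14.4%, 15.3% and 11.9% lower. In JCHAIN-high B barcodes 1 of 7 was higher and 1 lower, beside 7.88% and 21.6%.

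IRF7, the main inducer of type I interferon in plasmacytoid dendritic cells, was 9.30 CPM in A.G.-ES and 1.67 CPM in untreated B barcodes and 21.7 and 11.2 CPM in monocytes. Its B ratio was 5.57 (3.83 to 8.22) in the whole gate and 3.52 (2.29 to 5.43) without the barcodes that needed CD79A, and the monocyte ratio of 1.94 (0.915 to 4.6) included 1. In the 28 A.G.-ES B barcodes with at least 5 IRF8 UMIs it stood at 81.7 CPM.

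Over the 14 points of gate and library, each member was matched to the genes whose log2(CPM + 1) pattern was most like its own among 9078 genes. For IRF1 these were HCAR2 (Pearson r = 0.964), RAMP2 (0.963) and JAK2 (0.963), and for IRF2 PARP2 (0.934), DDX39B (0.892) and VCP (0.884). Outside monocytes HCAR2 had at most 1 UMI and RAMP2 at most 4 in a gate and library, so their likeness to IRF1 rested on the monocyte points. IRF3 was matched by GGA1 (0.972), HDAC5 (0.959) and INAFM1 (0.956), and IRF4 by ILRUN (0.947), SMARCA4 (0.938) and FLAD1 (0.936). For IRF5 they were HHEX (0.963), FGD2 (0.953) and LYN (0.95), and for IRF8 LRRK1 (0.972), BBC3 (0.964) and BTK (0.961). Among the members themselves IRF5 and IRF8 were closest (r = 0.801) and IRF1 and IRF4 farthest apart (r = -0.49). The points share 2 libraries and differ in depth, the NK points are shallow, and the values describe likeness only.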

How the data were processed

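The 2 libraries were deposited as UMI counts per gene and barcode, a droplet 3′ kit having been used per the labels' protocols. Counter, aligner and genome build were not given in the sources used here. There were 0 other per-sample columns. Barcodes under 500 UMIs, under 200 genes or over 15% mitochondrial UMIs were dropped ( 186 in A.G.-ES, 158 in untreated). Scrublet (scanpy 1.11.5) scored doublets, and the top 0.8% per 1000 cells were removed, 715 and 523 barcodes. Gates used summed UMIs of marker genes (B at least 3, T at least 2, monocyte at least 5, at most 1 of other lineages). Counts were summed per gate and scaled to CPM. Intervals are exact Poisson for levels, Clopper-Pearson for shares and conditional binomial for ratios. Calls used 1.5-fold. TMM (edgeR 4.0.16) and DESeq2 1.42.0 size factors were scaling alternatives only. The scripts were tested on simulated counts. The text names all 6 members, the 3 genes most like each, and, for the lists in the gates described, genes with the 2 highest and 2 lowest ratios or the most UMIs, plus gate markers; SOX5, TCF4, CD8A, FCER1G and barcodes rich in IRF8 were added after values were seen. Members, lists and gates were chosen with earlier results of these data known. Of the alternatives, 14 were fixed at the outset and 8 were added after seeing the data. Some genes of the lists are counted but not reported here by name.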

Additional observations from a re-analysis of the deposited data

Results flagged for a closer look

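IRF1 differed between the libraries in opposite directions in different gates. Its CPM ratio, A.G.-ES over untreated, was 1.81 in B barcodes and 1.60 in monocytes, and 0.703 in CD4 T barcodes, with intervals that lay above 1 in B barcodes and monocytes and below 1 in CD4 T barcodes. In the CD4 T gate 1 untreated barcode held 19 of the 138 untreated IRF1 UMIs, and the ratio without it was not taken. The gates of a group come from the same library, and the difference between gates was not tested.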

How the results depend on the processing

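No paired analysis was possible because each group has 1 library. TMM and DESeq2 scaling were not run for the ratios of JCHAIN-high B over B barcodes. Of the 11 calls, 4 held under the 13 alternatives run on them: IRF1 higher in B barcodes (log2 ratio 0.75 to 1.05) and in monocytes (0.59 to 0.84), IRF3 higher in CD4 T barcodes (0.62 to 1.25) and IRF8 higher in monocytes (0.65 to 2.06). The last 2 rested on few barcodes after thinning. IRF8 was found in 11 A.G.-ES and 2 untreated monocytes at 1500 UMIs, and in 8 and 2 at 1000. IRF3 was found in 26 and 4 CD4 T barcodes, and in 25 and 4. In monocytes without FLT3, CLEC9A or XCR1, the interval of the IRF8 ratio, 0.962 to 2.74, included 1. The number of pairs of gene and gate called lower, 3 as reported, was 7 at 1500 and at 1000 UMIs per barcode, 5 with no UMI of other lineages, 1 with up to 3 of them and 1 when CD79A was left out of the B markers. The number called higher, 8 as reported, lay between 7 and 12, and a fold of 2 left 2 higher and 1 lower. No share of all genes under the same setting is given beside these counts, so they are not set against the gates as a whole. IRF4 in CD8B T barcodes reversed at 1000 UMIs per barcode (log2 ratio 1.33, -1.03 as reported), where 0.578% of untreated barcodes kept a UMI. IRF8 in B barcodes lost its call without CD79A (0.20), IRF3 in B at 1000 UMIs (0.51), IRF3 in CD8B T at 1000 UMIs (0.13), and IRF8 in JCHAIN-high B barcodes at 1500 UMIs (0.15), with equal weight (0.42) and with up to 3 UMIs of other lineages (0.52). IRF2 in CD8B T barcodes lost its call under 6 alternatives (-0.40 with TMM, -0.43 with DESeq2, -0.48 at 1500 UMIs, -0.46 without CD79A, -0.58 without ribosomal, mitochondrial and haemoglobin genes, -0.58 with up to 3 UMIs of other lineages), and IRF5 in SOX13/RHEX T barcodes under 2 of them (-0.50 and -0.55). For the thinned depths, too, no share of all genes past the fold is given. Of the 20 pairs not called, 13 passed 1.5-fold at 1500 or 1000 UMIs per barcode. Among these, 5 had then turned their direction: at 1000 UMIs IRF4 in CD4 T (1.03), IRF5 in monocytes (0.65), IRF2 in monocytes (-0.78) and IRF3 in JCHAIN-high B barcodes (0.80), and at 1500 UMIs IRF5 in JCHAIN-high B barcodes (-0.85). IRF1 in CD4 T barcodes was called lower at both depths (-0.73 and -1.11), and IRF4 in B at 1500 (-0.63). With at least 1 UMI per library in place of 100 over both, the percent of all genes past 1.5-fold was 39.6 in B, 36.0 in CD4 T, 46.4 in CD8B T, 37.8 in SOX13/RHEX T and 39.5 in monocyte barcodes, and 29.8 in monocytes at a minimum of 20. The causes were not tested. The 46 A.G.-ES and 19 untreated NK barcodes held at most 18 UMIs of any of the 6 genes, and pairs with few UMIs keep very few after thinning, such as IRF4 in CD8B T barcodes.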

Other observations

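Cycling barcodes, with at least 2 UMIs of the division genes MKI67 and TOP2A, were 11 of 1758 A.G.-ES B barcodes and 99 of 2919 untreated B barcodes, so the comparison is given in the untreated library alone. Against other untreated B barcodes, cycling ones had 1.45-fold (1.11 to 1.86) the level of IRF1, 1.20-fold (1.01 to 1.41) that of IRF2 and 0.760-fold (0.607 to 0.941) that of IRF5. IRF4 and IRF8 were at 0.948-fold (0.781 to 1.14) and 0.982-fold (0.703 to 1.34), within counting error of 1.

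Among CD4 T barcodes, FOXP3, the regulatory T cell factor, was found in 48 A.G.-ES (3.41%) and 30 untreated barcodes (8.36%). IRF1 was 68.6 CPM in the A.G.-ES ones and 77.9 CPM in the untreated ones, and IRF4 had 1 and 2 UMIs, too few to compare. Barcodes with at least 5 IRF8 UMIs outside the B-lineage gates were found in no T, NK or monocyte gate, and 14 A.G.-ES and 2 untreated ones were in no gate.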
